A study of Homo sapiens with 12 samples.

Results

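The mRNAs of the 5 genes that carry out oxygen sensing for the hypoxia inducible factors (HIFs) were followed in 3 human cancer cell lines. The genes were taken by symbol, with no threshold on their values, and are the HIF prolyl hydroxylases EGLN1, EGLN2 and EGLN3, the HIF asparagine hydroxylase HIF1AN and the ubiquitin ligase subunit VHL, 5 of the 25369 genes in the count table. RKO colon carcinoma cells, A549 lung adenocarcinoma cells and H460 lung large cell carcinoma cells were kept for 24 h under normoxia or under hypoxia of 1% O2, and poly(A)+ RNA of 2 independent replicates of each of the 6 groups was sequenced. RKO and A549 were grown in DMEM and H460 in RPMI, so that line and medium cannot be told apart in comparisons with H460. The labels name no engineered allele for any line. The 12 libraries held 27350424 to 41757584 counted reads each, and duplicate libraries of a group differed by more than counting error in all 6 groups.

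All 3 lines had reads of the epithelial keratins KRT8 and KRT18 in every library. Of the other defining markers, the adhesion genes EPCAM and CDH1 were near 0 in H460 (at most 18 reads), and CDH1 had 2 to 4 reads in RKO. The colon transcription factor CDX2 had 377 to 619 reads in RKO, whereas VIL1 and CDX1 were at 0 and KRT20 and CDH17 had 0 to 2. The colon marker CDH17 had 66 to 105 reads in A549. The surfactant genes SFTPA1, SFTPB and SFTPC had at most 4 reads in A549 and at most 1 in H460. Of the remaining lung markers NAPSA had 133 to 179 reads in A549 and 12 to 23 in H460, and the lung transcription factor NKX2-1 had 1 to 8 and 0 to 98. Among markers of other cell types, COL1A1 had 1972 to 14762 reads in A549 and 298 to 537 in H460, and PDGFRB had 229 to 469 in H460. PTPRC, PECAM1 and CDH5 had at most 8 reads in any library. Markers of the labelled tissue were thus present in part and absent in part, and the lines are called by name.

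In cells with ample oxygen, the EGLN enzymes (also called PHD enzymes) hydroxylate prolines of the HIF-α subunits, VHL binds the hydroxylated proline, and the ligase built around VHL marks HIF-α for destruction. HIF1AN (also called FIH) hydroxylates an asparagine of HIF-α and so blocks binding of its coactivators. These enzymes use O2 and 2-oxoglutarate as substrates and lose activity as oxygen falls, and EGLN1 and EGLN3 are known as HIF target genes, which closes a feedback loop. The mRNA level alone says nothing of enzyme activity.

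The 5 genes lie on 5 chromosomes (GRCh37, the build of the files). EGLN1, the enzyme that sets HIF-α levels in most cells, spans positions 231499496 to 231560790 of the minus strand of chromosome 1. EGLN2, at 41305047 to 41314346 of the plus strand of chromosome 19, starts downstream of RAB4B and is joined to it in the annotated read-through gene RAB4B-EGLN2. EGLN3 lies at 34393420 to 34420284 on the minus strand of chromosome 14. HIF1AN lies at 102295640 to 102313681 on the plus strand of chromosome 10, and VHL at 10183318 to 10195354 on the plus strand of chromosome 3.

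The core of the HIF binding site most often reads ACGTG. This motif and its variant GCGTG were searched on both strands of the 250 bases that precede each RefSeq gene start (GRCh38.p14). Windows were at hand for 4 of the 5 genes (not for VHL), with 2 for EGLN2. They are shown 5′ to 3′ on the strand of the gene, because EGLN1 and EGLN3 are the members that responded to hypoxia while EGLN2 and HIF1AN were not called, and capitals mark the first motif (in EGLN2 it reads on both strands and the matches overlap). The windows are chr1:231422288-231422537 (minus strand), chr19:40798941-40799190 (plus strand), chr14:33951075-33951324 (minus strand) and chr10:100535693-100535942 (plus strand).
EGLN1: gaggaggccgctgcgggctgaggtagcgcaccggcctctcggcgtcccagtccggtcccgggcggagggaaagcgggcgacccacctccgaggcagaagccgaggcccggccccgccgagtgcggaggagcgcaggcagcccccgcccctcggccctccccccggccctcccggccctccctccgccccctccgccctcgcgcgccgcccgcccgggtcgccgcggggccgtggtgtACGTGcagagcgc
EGLN2: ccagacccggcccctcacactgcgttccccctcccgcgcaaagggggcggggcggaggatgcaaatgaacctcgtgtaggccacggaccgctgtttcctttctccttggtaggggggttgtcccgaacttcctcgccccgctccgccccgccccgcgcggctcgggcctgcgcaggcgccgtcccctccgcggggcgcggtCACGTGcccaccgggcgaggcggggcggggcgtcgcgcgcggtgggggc
EGLN3: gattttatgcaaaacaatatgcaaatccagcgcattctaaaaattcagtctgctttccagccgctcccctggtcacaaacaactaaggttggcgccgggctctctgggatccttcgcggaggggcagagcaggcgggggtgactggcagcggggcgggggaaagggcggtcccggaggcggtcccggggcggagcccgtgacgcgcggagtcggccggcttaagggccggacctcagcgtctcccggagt
HIF1AN: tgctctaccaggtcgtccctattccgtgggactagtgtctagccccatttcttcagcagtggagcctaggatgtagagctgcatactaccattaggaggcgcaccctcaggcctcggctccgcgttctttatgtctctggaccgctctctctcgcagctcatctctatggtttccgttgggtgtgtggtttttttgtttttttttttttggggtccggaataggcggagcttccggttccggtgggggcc
The EGLN1 window held 1 ACGTG, whose first base was 13 bases before the start. The EGLN2 window held the motif on both strands, while the second EGLN2 window, those of EGLN3 and HIF1AN held neither motif. Over all 35116 windows of this length 18.5% held ACGTG and 32.2% held GCGTG, so that a match is common, and it is given as a description of the letters only. The G+C content was 81.2% in EGLN1, 76.0% in the EGLN2 window shown, 64.0% in EGLN3 and 54.4% in HIF1AN.

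**Figure D1:**
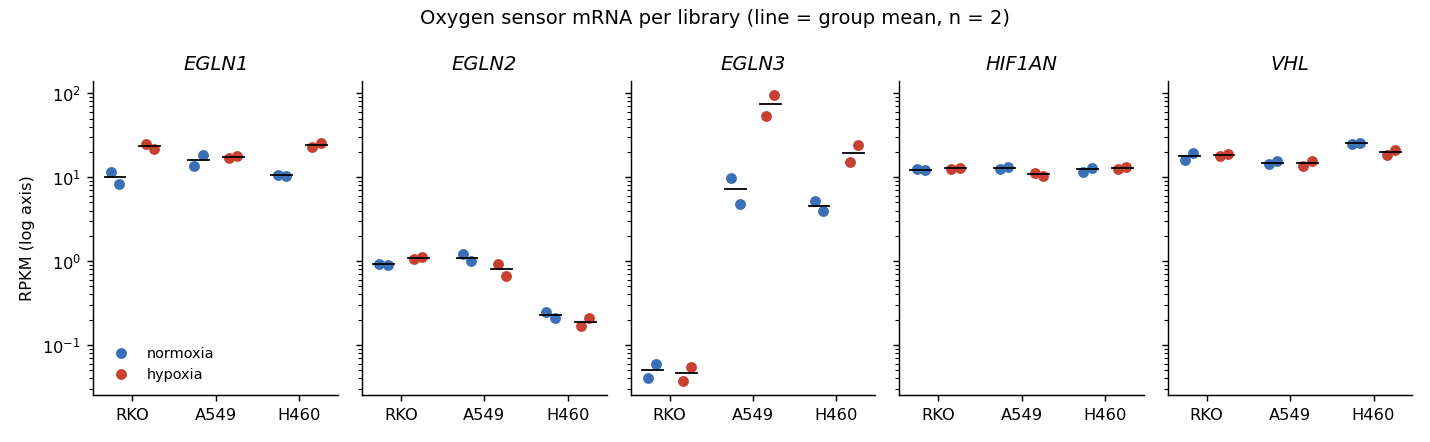
RPKM of each of the 5 genes in each of the 12 libraries, on a log axis, with blue points for normoxia, red points for hypoxia and a line at the mean of the 2 replicates. EGLN3 in RKO stood below 0.1 RPKM in all 4 libraries and reached 94.5 RPKM in hypoxic A549, whereas all HIF1AN values lay between 10.5 and 13.3 RPKM.

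EGLN1 mRNA rose in hypoxia in RKO and H460 and was not called in A549. In RKO it had 11.6 and 8.30 RPKM (reads per kilobase of gene, scaled to the counted reads of the library) in normoxia and 24.8 and 21.9 RPKM in hypoxia. In H460 the values were 10.7 and 10.3 RPKM in normoxia and 22.6 and 25.4 RPKM in hypoxia. In both lines the conditions did not overlap and the hypoxic libraries were all above 20 RPKM. A549 had 13.7 and 18.4 RPKM in normoxia and 17.0 and 17.8 RPKM in hypoxia, and there both hypoxic libraries lay between the normoxic ones. The EGLN1 level in hypoxic A549 (17.4 ± 0.587 RPKM, SD, n = 2) was below that of hypoxic RKO (23.4 ± 2.05) and H460 (24.0 ± 1.96), which was not tested.

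By edgeR's quasi-likelihood test on the counts, EGLN1 rose 2.21-fold in RKO (log2 fold change 1.15 ± 0.19, SE, adjusted p = 0.000735) and 2.92-fold in H460 (1.55 ± 0.09, adjusted p = 3.97e-08). A call needed a fold change over 1.5 together with an adjusted p under 0.1. Scaled by total reads alone, as the RPKM are, the EGLN1 log2 fold change in H460 was 1.195 and was still called. In A549 the difference was 0.21 ± 0.19 (adjusted p = 0.619), with a 95% interval from −0.22 to 0.64 that allows a fold change of about the size of the threshold. Levels and changes are those of the cultures as a whole, where fewer expressing cells and less RNA per cell cannot be told apart.

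The hypoxia effect on EGLN1 itself differed between lines, as tested by the interaction in a fit of all 12 libraries. It was larger in RKO than in A549 by 0.98 ± 0.25 on the log2 scale (adjusted p = 0.0309) and smaller in A549 than in H460 by 1.33 ± 0.26 (difference −1.33, adjusted p = 0.00184). RKO and H460 differed by −0.35 ± 0.25 (adjusted p = 0.331, 95% interval −0.90 to 0.19). The difference between RKO and A549 rested on single RKO libraries. Without normoxia replicate 2 of RKO it was 0.74 (adjusted p = 0.101) and without hypoxia replicate 1 of RKO it was 0.83 (adjusted p = 0.107), both past the threshold of 0.1. The difference between A549 and H460 was called whichever library was left out, from −1.52 to −1.12.

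**Figure D2:**
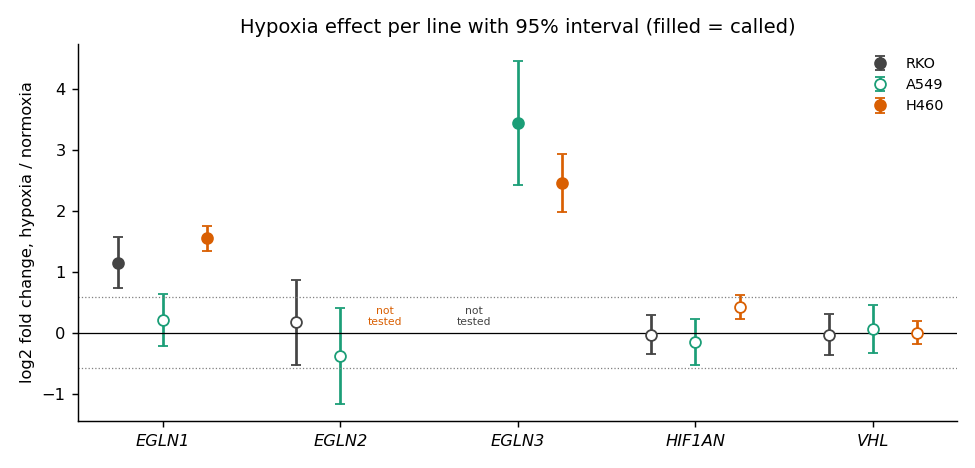
Log2 fold change of hypoxia over normoxia for each gene and line, with its 95% interval from edgeR, filled where the gene was called and with dotted lines at a fold change of 1.5. EGLN1 in RKO and H460 and EGLN3 in A549 and H460 were the 4 filled points, and EGLN2 in H460 and EGLN3 in RKO had too few reads for a test.

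EGLN2, the family member that acts mainly in the nucleus and is not known for a rise in hypoxia, gave few reads everywhere. RKO had 79 and 79 reads in normoxia and 99 and 88 in hypoxia, or 0.929, 0.906, 1.07 and 1.11 RPKM. A549 had 115 and 90 reads in normoxia against 92 and 56 in hypoxia (1.21 and 0.994 against 0.932 and 0.663 RPKM). H460 was near 0, with 16 and 16 reads in normoxia and 12 and 17 in hypoxia (0.247, 0.209, 0.168 and 0.207 RPKM). RKO hypoxia lay just above RKO normoxia, A549 hypoxia just below A549 normoxia, and the H460 conditions met.

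No change of EGLN2 with oxygen was called. The log2 fold change was 0.17 ± 0.32 in RKO (adjusted p = 0.713, edgeR) and −0.38 ± 0.35 in A549 (adjusted p = 0.629), and H460 was below the minimum for a test (0.5 CPM in at least 2 libraries). There the hypoxic libraries together had 29 reads against 32 in normoxia, a ratio per counted read of 0.835. Its exact Poisson 95% interval of 0.487 to 1.42 covers counting error only, and it was scaled by total reads. With the scaling of the tests and variation between replicates, the fit of all 12 libraries gave a log2 fold change of 0.10 (95% interval −0.75 to 0.94). The sign of the H460 estimate thus depended on the scaling. A change within these intervals was not detectable at this depth.

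The EGLN2 values may count only part of the transcript. In GENCODE canonical transcripts lifted to GRCh37, EGLN2 has 2100 exon bases in 6 exons, of which 2012 bases (95.8%) are also exon of RAB4B-EGLN2 on the same strand and 88 are not. In the counting mode used (intersection-nonempty), a read that lies wholly in exons of 2 genes is given to neither, so EGLN2 reads can come from those touching unshared bases. RAB4B, all of whose 1014 exon bases are shared with read-through genes, had 0 reads in all 12 libraries, and RAB4B-EGLN2 had 10 reads in all. EGLN1, EGLN3, HIF1AN and VHL share 0 exon bases with another gene on their strand. How many EGLN2 reads were lost was not tested, the annotation file that the authors counted with was not analysed here, and the level of EGLN2 is therefore not set against those of EGLN1 and EGLN3 as a difference in expression. The same limit touches comparisons of EGLN2 between lines, since use of the first exon or of the read-through transcript may differ among them, which was not tested.

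**Figure D3:**
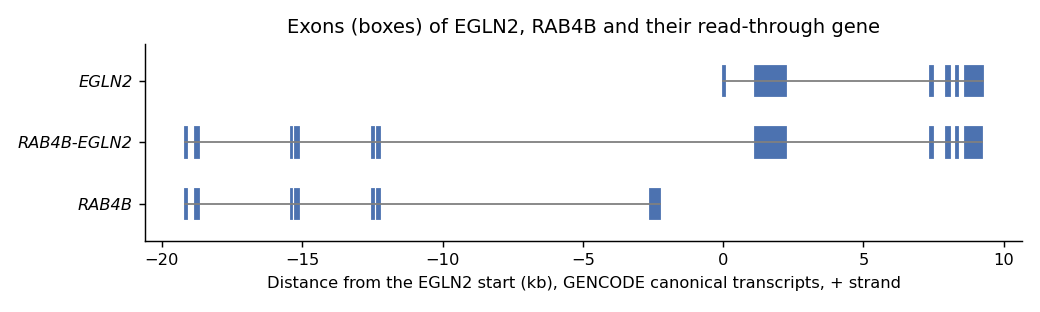
Exons (boxes) of the canonical transcripts of EGLN2, RAB4B-EGLN2 and RAB4B on the plus strand, by distance in kb from the EGLN2 start. The short first exon of EGLN2 stands apart from RAB4B-EGLN2, the remaining exons coincide but for the last bases of the last one (88 of 2100 bases unshared in all), and the last exon of RAB4B is shared with a different read-through gene (MIA-RAB4B) that is not drawn.

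EGLN3 showed the widest range of the 5 genes, from a few reads in RKO to the highest level of any member in hypoxic A549. The RKO libraries held 4 and 6 reads in normoxia and 4 and 5 in hypoxia, or 0.0409, 0.0598, 0.0376 and 0.0550 RPKM. A549 had 9.81 and 4.74 RPKM in normoxia and 53.3 and 94.5 RPKM in hypoxia, from 494 to 9192 reads. H460 had 5.22 and 3.95 RPKM in normoxia and 15.4 and 23.9 RPKM in hypoxia, from 349 to 2261 reads. Both lung lines had their hypoxic libraries above both normoxic ones, with no overlap, and RKO was near 0 in both conditions.

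In A549 EGLN3 rose 10.8-fold (log2 fold change 3.43 ± 0.43, SE, 95% interval 2.42 to 4.45, adjusted p = 0.0199, edgeR), which placed it at rank 16 of 14251 tested genes by fold change. In H460 it rose 5.46-fold (2.45 ± 0.21, 1.97 to 2.93, adjusted p = 9.43e-06), at rank 323 of 14080. EGLN1 stood lower in these lines, at rank 3982 in A549 and 902 in H460. In RKO, where EGLN3 was not tested, EGLN1 was at rank 1113 of 12817. Scaled by total reads alone, the EGLN3 log2 fold change in H460 was 2.10 and was still called. The A549 call held whichever library was left out (2.94 to 4.07), and it was lost when no filter on low counts was applied (3.43, adjusted p = 0.122) or when the replicate number was a block in the fit (3.45, adjusted p = 0.338).

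In RKO no library reached the minimum for a test. The hypoxic libraries together had 9 reads of 72499979 and the normoxic ones 10 of 72834599, a ratio of 0.904 with an exact Poisson 95% interval of 0.325 to 2.48 for counting error. A change as large as that of A549 or H460 lies outside this interval, which leaves out variation between replicates. With that variation included, the fit of all 12 libraries gave a log2 fold change of −0.16 in RKO (95% interval −2.79 to 2.47). The H460 estimate of 2.45 lies within that interval and the A549 estimate of 3.43 lies outside it. The interaction test gave −3.61 ± 1.36 for RKO against A549 (adjusted p = 0.127) and −2.62 ± 1.32 for RKO against H460 (adjusted p = 0.164), and neither was called. Both were called with DESeq2 (adjusted p = 0.00335 and 0.0230), with no filter on low counts (4.04e-05 and 0.00115) and with limma on log2 RPKM at a pseudocount of 0.1 (0.00636 and 0.0116) or 1 (0.00750 and 0.0160). They also moved with single A549 libraries. The RKO against A549 difference passed without A549 normoxia replicate 1 (−4.25, adjusted p = 0.0349), A549 hypoxia replicate 1 (−3.99, adjusted p = 0.0773) or A549 hypoxia replicate 2 (−3.10, adjusted p = 0.0977). The RKO against H460 difference passed without A549 normoxia replicate 1, A549 normoxia replicate 2 or A549 hypoxia replicate 2 (−2.62 each, adjusted p = 0.0807, 0.0810 and 0.0856).

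Between A549 and H460 the EGLN3 effect differed by 0.99 ± 0.50 (95% interval −0.09 to 2.08, adjusted p = 0.161), which was not called. It passed without A549 normoxia replicate 1 (1.63, adjusted p = 0.0139) and without A549 hypoxia replicate 1 (1.37, adjusted p = 0.0523). It also passed with total reads alone (1.24, adjusted p = 0.0629), with no filter (0.99, adjusted p = 0.000924) and with limma at both pseudocounts (1.31 and 1.33, adjusted p = 0.0833 and 0.0658). Whether the EGLN3 response differs between lines thus depends on the test used.

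Set against each other per length, EGLN1 was the more abundant of EGLN1 and EGLN3 in normoxia in every library, and in hypoxia this order was turned in A549 alone among the 3 lines. The ratio of EGLN3 to EGLN1 RPKM was 0.716 and 0.258 in normoxic A549 and 3.13 and 5.31 in hypoxic A549. In H460 it was 0.487 and 0.386 in normoxia and 0.679 and 0.942 in hypoxia. EGLN1 thus stayed ahead in each H460 library, by little in hypoxia replicate 2 alone. In RKO it stayed between 0.00152 and 0.00721, with the hypoxic libraries below the normoxic ones. With 2 libraries against 2 an exact permutation test cannot go below p = 0.33, so these ratios carry no test.

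As a share of the summed EGLN1, EGLN2 and EGLN3 RPKM, with the limit on EGLN2 given above, EGLN3 made up 39.7% and 19.7% in normoxic A549 and 74.8% and 83.7% in hypoxic A549. In H460 its share was 32.3% and 27.4% in normoxia and 40.2% and 48.3% in hypoxia. In RKO it was below 1% in all 4 libraries. The sum itself was 24.7 and 24.1 RPKM in normoxic and 71.2 and 113 RPKM in hypoxic A549, and 16.2 and 14.4 against 38.1 and 49.5 RPKM in H460. In RKO it was 12.6 and 9.27 against 25.9 and 23.1 RPKM. The sum was thus higher in each hypoxic library than in either normoxic library of the same line, through EGLN3 in A549, through EGLN1 in RKO and through both in H460.

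**Figure D4:**
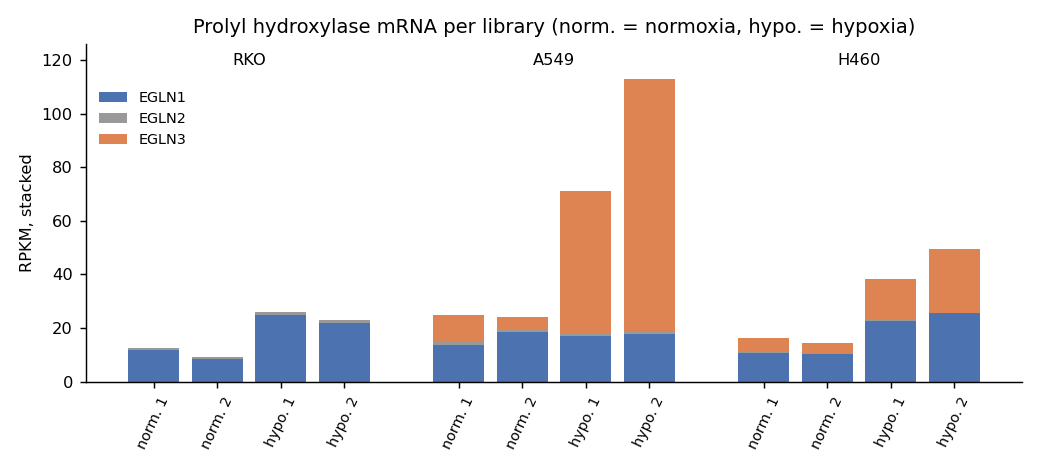
Stacked RPKM of EGLN1, EGLN2 and EGLN3 in each library (norm., normoxia, and hypo., hypoxia, replicates 1 and 2). EGLN1 fills nearly all of the RKO bars, EGLN3 fills 74.8% and 83.7% of the hypoxic A549 bars, and the hypoxic H460 bars hold both.

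HIF1AN was the most even of the 5 genes. RKO had 12.4 and 12.3 RPKM in normoxia and 12.6 and 12.9 in hypoxia. A549 had 12.5 and 13.2 RPKM in normoxia and 11.1 and 10.5 in hypoxia, and H460 had 11.7 and 13 RPKM in normoxia and 12.7 and 13.3 in hypoxia. The hypoxic values lay above the normoxic ones in RKO and below them in A549, and they overlapped in H460. None of the log2 fold changes was called, at −0.03 ± 0.15 in RKO (adjusted p = 0.880), −0.16 ± 0.17 in A549 (adjusted p = 0.679) and 0.42 ± 0.09 in H460 (adjusted p = 0.000914, edgeR), where the fold of 1.34 was under 1.5.

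The H460 value of HIF1AN depends on scaling. Scaling by total reads in place of trimmed means (TMM, used here) shifted the median tested gene of H460 by −0.35 (log2), and the share of calls that were higher fell from 47.5% to 26.5% under the second. The TMM factors were 1.03 and 1.05 in normoxic and 0.786 and 0.829 in hypoxic H460. With total reads alone the HIF1AN change in H460 was 0.07 (adjusted p = 0.506). By TMM the HIF1AN effect in H460 exceeded that in RKO by 0.41 ± 0.17 (RKO minus H460 −0.41, adjusted p = 0.0860) and that in A549 by 0.58 ± 0.17 (A549 minus H460 −0.58, adjusted p = 0.0216). Both differences were lost with total reads alone (−0.02, adjusted p = 0.982, and −0.32, adjusted p = 0.174) and with limma on log2 RPKM at a pseudocount of 0.1 (adjusted p = 0.935 and 0.177). The first was lost, too, with a pseudocount of 1 (adjusted p = 0.929) and with no filter on low counts (−0.40, adjusted p = 0.245). It was also lost when any of 7 libraries was left out, namely each H460 library, both RKO normoxia libraries and RKO hypoxia replicate 2 (−0.48 to −0.34). The second was lost without H460 normoxia replicate 1 (−0.51, adjusted p = 0.103).

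VHL mRNA was measured at 13.7 to 25.6 RPKM in all libraries. RKO had 15.9 and 19.6 RPKM in normoxia and 17.7 and 19.0 in hypoxia, and A549 had 14.3 and 15.5 in normoxia and 13.7 and 15.5 in hypoxia. In both lines the conditions overlapped. H460 had 25 and 25.6 RPKM in normoxia and 18.4 and 21.4 in hypoxia, and here they did not.

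With TMM scaling the log2 fold change of VHL was −0.03 ± 0.16 in RKO (adjusted p = 0.891), 0.06 ± 0.17 in A549 (adjusted p = 0.891) and 0.00 ± 0.09 in H460 (95% interval −0.19 to 0.20, adjusted p = 0.985, edgeR). In H460 total reads alone gave −0.35 (adjusted p = 0.00608), as large as the median shift between the 2 scalings and under the 1.5-fold threshold. Which scaling fits the RNA content of hypoxic H460 cells was not tested. The VHL effect did not pass a test of difference between any pair of lines (adjusted p = 0.856 to 1.00).

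Read against all tested genes, 1 of 4 tested members was called higher in RKO (EGLN1), where 18.8% of genes were, and 0 lower, where 15.1% were. In A549 1 of 5 was higher (EGLN3) against 1.82% of genes, and 0 lower against 0.351%, where the replicate block called 1146 genes higher and 661 lower in place of 259 and 50. In H460 2 of 4 were higher (EGLN1 and EGLN3) against 24.6%, and 0 lower against 27.3%. An interaction was called for 1 of 5 members between RKO and A549 (14.4% of genes), 1 for the pair of RKO and H460 (37.6%) and 2 for that of A549 and H460 (35.8%). The A549 call of EGLN3 fell in the line where few genes were called, while the shares in RKO and H460 and those for the interactions rest on too few genes to read against the background.

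In normoxia the lines differed in EGLN2 and EGLN3 and, less widely, in EGLN1 and VHL. EGLN1 was highest in A549 (16.0 ± 3.29 RPKM, SD, n = 2), above H460 (10.5 ± 0.342) and RKO (9.95 ± 2.34), which did not pass a test of a difference (RKO minus H460 −0.10, adjusted p = 0.627, 95% interval −0.49 to 0.28). RKO minus A549 was −0.69 (adjusted p = 0.00332) and A549 minus H460 was 0.59 (adjusted p = 0.0112, edgeR). The first was under 1.5-fold without RKO normoxia replicate 2 (−0.46) or A549 normoxia replicate 2 (−0.48). The second was not called without A549 normoxia replicate 2 (0.38, adjusted p = 0.121) or H460 normoxia replicate 2 (0.54, under 1.5-fold).

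EGLN2 was lowest in H460 (0.228 ± 0.0274 RPKM) and passed no test of a difference between A549 (1.10 ± 0.155) and RKO (0.917 ± 0.0158, RKO minus A549 −0.28, adjusted p = 0.412). On the log2 scale RKO exceeded H460 by 1.98 (adjusted p = 0.000113) and A549 exceeded H460 by 2.25 (adjusted p = 4.49e-05), in the reads that were counted for EGLN2. EGLN3 was lowest in RKO (0.0503 ± 0.0134 RPKM), below A549 (7.28 ± 3.59 RPKM, RKO minus A549 −7.15, adjusted p = 6.40e-07) and H460 (4.59 ± 0.898 RPKM, RKO minus H460 −6.50, adjusted p = 1.70e-06), values that rest on 10 RKO reads in all. A549 and H460 did not pass the test of a difference in EGLN3 (0.65, adjusted p = 0.140), which was called without A549 normoxia replicate 2 (1.09, adjusted p = 0.0109), A549 hypoxia replicate 1 or A549 hypoxia replicate 2 (0.65 each, adjusted p = 0.0775 and 0.0717).

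VHL was highest in H460 (25.3 ± 0.412 RPKM) and exceeded A549 (14.9 ± 0.884) by 0.78 (A549 minus H460 −0.78, adjusted p = 0.000180). RKO (17.8 ± 2.64) stood between them. RKO minus H460 was −0.55 (adjusted p = 0.00242, under 1.5-fold, and −0.69 and called without RKO normoxia replicate 2), and RKO minus A549 was 0.24 (adjusted p = 0.136). HIF1AN passed no test between lines, with differences from −0.06 to 0.03 (adjusted p = 0.654 to 0.836). Of the 5 members 2 were called between RKO and A549, where 60.0% of genes were, 2 for RKO and H460 (61.8%) and 3 for A549 and H460 (52.0%). The members' counts were thus not above the background in the first and second of these pairs. In the third pair the count was near the background.

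The genes whose profile over the 12 libraries was most like that of each member were listed as a description, by Pearson correlation of log2(TMM CPM + 0.5) among genes with a mean of at least 100 counts. The libraries share line, medium and oxygen, so such values are high for many genes. For EGLN1 they were HBP1 (r = 0.979), CALCOCO1 (0.976) and CSRNP1 (0.969). All 3 passed the test in RKO (log2 fold changes 1.80, 1.91 and 1.27) as in H460 (2.90, 2.64 and 1.62), and none did in A549 (0.70, 0.72 and 0.11). For EGLN3 they were UACA (r = 0.980), IGFBP3, which encodes a binding protein of insulin-like growth factors (0.976), and WISP2 (0.975). Each was called higher in A549 (1.67, 1.84 and 2.08) and H460 (0.98, 3.80 and 2.47), and UACA also in RKO (0.71).

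For EGLN2, at a mean of 63.3 reads per library, the nearest profiles were CHMP2B (r = 0.989), GSK3A (0.984) and HOTAIRM1 (0.979), none of which was called in a line where it was tested. For HIF1AN they were SMCR8 (r = 0.967), PIGA (0.946) and CCDC22 (0.946), which were called higher in H460 (0.79, 2.13 and 0.93) and not in the other lines, a difference between lines that was not tested. For VHL they were LOC391322 (r = 0.979), PTPN18 (0.975) and LOC284889 (0.973), with no call in any line where they were tested.

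Around the sensors, the VHL ligase partners are the elongins that bind VHL, the cullin CUL2 that carries them, RBX1, and the NEDD8 machinery that switches cullins on. All 8 were tested. Of all tested genes RKO had 18.8% called higher and 15.1% lower, A549 1.82% and 0.351%, and H460 24.6% and 27.3%. Over the 5 lists described here, RKO had 5 genes higher and 12 lower, A549 1 and 1, and H460 9 and 11, while total reads alone gave 9 higher in RKO and 20 lower in H460. Among the ligase partners one, CAND1, an exchange factor of cullin ligases, fell in RKO (from 86.1 ± 6.10 to 54.8 ± 3.36 RPKM, log2 fold change −0.74 ± 0.15, adjusted p = 0.00263, edgeR), and one, TCEB1 (elongin C), fell in H460 (from 17.1 ± 0.290 to 8.73 ± 0.434 RPKM, −0.61 ± 0.09, adjusted p = 0.000104). None was called in A549. All 8 had log2 fold changes below 0 in RKO (−0.74 to −0.34), and all but CAND1 were under the 1.5-fold threshold there. In the order RKO, A549 and H460, the list had a median log2 fold change of −0.47, −0.06 and −0.14, beside 0.01, −0.01 and −0.04 for all tested genes. CAND1 did not fall in A549 (0.08) or H460 (0.27), where it was not called. Its effect in RKO was lower than that in A549 (interaction −0.78, adjusted p = 0.0184) and in H460 (−0.96, adjusted p = 0.00138).

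Of 13 genes described as regulators of the hydroxylases or of VHL, 1 was called higher and 2 lower in RKO, none in A549, and 6 higher and 2 lower in H460, beside 18.8% and 15.1% of all tested genes in RKO and 24.6% and 27.3% in H460. The list median was 0.21, 0.10 and 0.43 in RKO, A549 and H460. WSB1, a ubiquitin ligase subunit known to target VHL, rose most in RKO (from 38.8 ± 3.75 to 163 ± 11.9 RPKM, 1.99 ± 0.15, adjusted p = 6.95e-06) and in H460 (from 116 ± 12 to 366 ± 42.6 RPKM, 2.01 ± 0.12, adjusted p = 3.92e-08). In A549 it differed by 0.80 ± 0.22 (adjusted p = 0.134). The largest falls were in PTGES3, the cochaperone p23, in RKO (−0.62 ± 0.16, adjusted p = 0.00765) and in WTIP, a LIM domain scaffold, in H460 (−1.46 ± 0.25, adjusted p = 0.000228). The other 5 called higher in H460 included the ubiquitin ligases SIAH1 (0.98) and SIAH2 (1.06), which target EGLN enzymes. The rest of the 5 were the EGLN1 binding protein FKBP8 (1.21), the scaffold LIMD1 (1.34) and OS9 (0.79). The other gene called lower was WDR83, both in RKO (−0.62, adjusted p = 0.0506, edgeR) and in H460 (−0.66, adjusted p = 0.00407). All of these were named after their values were seen.

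Of 10 other oxygen-dependent protein dioxygenases, 1 was called higher and 5 lower in RKO and again 1 higher and 5 lower in H460, with none in A549, beside the same shares of all genes (15.1% lower in RKO and 27.3% in H460). The medians were −0.33, −0.29 and −0.87 in RKO, A549 and H460. P4HTM, a membrane-bound prolyl hydroxylase, rose most in RKO (0.95 ± 0.22, adjusted p = 0.00484), and JMJD6, a lysyl hydroxylase, in H460 (2.28 ± 0.12, from 4.87 ± 0.932 to 18.5 ± 0.0724 RPKM, adjusted p = 2.30e-08). The largest fall within RKO was that of MINA, a ribosomal histidyl hydroxylase (−1.54 ± 0.21, adjusted p = 0.000231), which also fell in H460 (−1.69). Within H460 it was that of JMJD4, which hydroxylates the release factor eRF1 (−2.02 ± 0.12, adjusted p = 4.29e-08) and also fell in RKO (−1.38). These directions set the list apart from EGLN1 and EGLN3 in count only, since no test over the list was made.

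A further 10 enzymes make or consume 2-oxoglutarate, or remove succinate, fumarate and 2-hydroxyglutarate, which compete with it. Of these, 2 were higher and 2 lower in RKO, 1 higher in A549 and 2 lower in H460. In RKO these were about as many as the shares of all genes give (18.8% higher and 15.1% lower). In H460 the genes called lower were near their share (27.3%), whereas 0 were higher, where 24.6% of all genes were. In A549 the shares were 1.82% higher and 0.351% lower. With 10 genes, these counts are too small to read against the background. The medians were −0.02, −0.05 and 0.01. IDH2, mitochondrial isocitrate dehydrogenase, rose from 19.2 ± 2.37 to 64.8 ± 9.10 RPKM in RKO (1.68 ± 0.18, adjusted p = 4.92e-05) and from 28.5 ± 0.523 to 63.0 ± 14.9 RPKM in A549 (1.24 ± 0.21, adjusted p = 0.0290). FH, fumarate hydratase, fell in RKO (−0.81 ± 0.15, adjusted p = 0.00143) and in H460 (−1.24 ± 0.09, from 106 ± 3.37 to 35.4 ± 3.79 RPKM, adjusted p = 2.85e-07).

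The HIF subunits, the substrates and their partners, had 1 gene higher and 2 lower of 4 tested in RKO, 1 lower in A549, and 2 higher and 1 lower in H460, too few to set against the shares of all genes (18.8% and 15.1%, 0.351% lower, and 24.6% and 27.3%), at medians of −0.09, −0.11 and 0.64. Within each line, the largest called rises were EPAS1 (HIF-2α) in RKO (1.29) and ARNT, the shared partner of HIF-α, in H460 (1.69). The largest called falls within a line were HIF1A in RKO (−1.75) and A549 (−1.16, adjusted p = 0.0542) and ARNT2 in H460 (−2.0, from 0.551 ± 0.0878 to 0.106 ± 0.0493 RPKM). EPAS1 was also called higher in H460 (1.42), and ARNT2 was also called lower in RKO (−0.70).

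**Figure D5:**
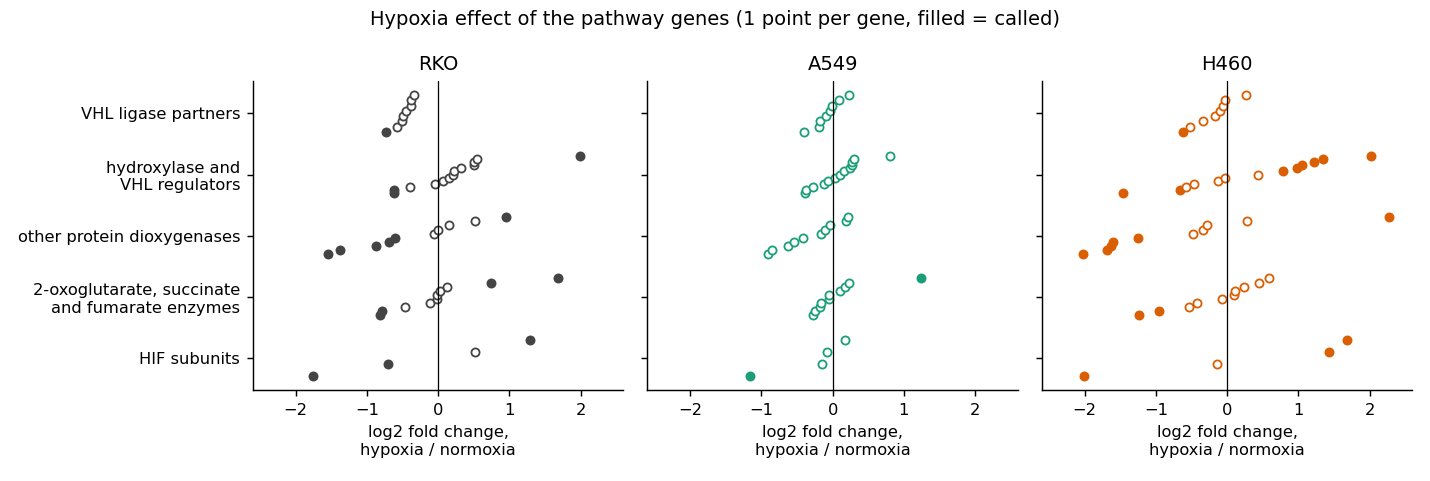
Log2 fold change of hypoxia over normoxia of each gene of the 5 pathway lists in the 3 lines, 1 point per tested gene, filled where called. A549 has 2 filled points, IDH2 and HIF1A, and the filled points of the other dioxygenases lie mostly to the left in RKO and H460.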

How the data were processed

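Per the labels and the study's methods, the authors aligned single-end, strand-specific reads to GRCh37/hg19 with TopHat2 2.0.13, removed alignments of low mapping quality and counted exon reads with HTSeq 0.6.1 (reverse-stranded, intersection-nonempty). They deposited raw counts per gene and RPKM values, which equal the count per kilobase scaled to the summed counts of the library. Tests on the counts used the robust quasi-likelihood F test of edgeR 4.0.16 (R 4.3.3) with TMM factors and Benjamini-Hochberg adjustment over all tested genes, for genes over 0.5 CPM in at least 2 libraries, each line on its own 4 libraries. Differences between lines used 1 fit of all 12 libraries, and interactions were called on the adjusted p alone. The scripts were tested on simulated data. RPKM served for levels and for comparison between genes. Values are means ± SD of n = 2 for levels and estimates ± SE for log2 fold changes.

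Alternatives were DESeq2 1.42.0, RLE factors, total reads alone, no filter or 1 CPM, a joint fit, a replicate block, other fold thresholds, log2 RPKM (pseudocount 0.1 or 1) in limma 3.58.1, and leaving out each library. The members, the lists and the tests were chosen with earlier results of these data known. Named genes are the members, the called genes with the largest rise and fall per list and line, the 3 nearest profiles per member, and genes overlapping a member. Among the latter, KIR2DL4 and DUX4 family entries had 0 reads. The labels name SAMtools 1.3.1 and Picard 1.129 as further tools. Lists were written from general knowledge and use the symbols of the annotation.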

Additional observations from a re-analysis of the deposited data

Results flagged for a closer look

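In 4 cases the hypoxia effect on a member differed between lines by the interaction test over 12 libraries (edgeR, adjusted p under 0.1). EGLN1 differed by 0.98 for RKO minus A549 (adjusted p = 0.0309) and by −1.33 for A549 minus H460 (adjusted p = 0.00184), on the log2 scale. In RKO and H460 both hypoxic libraries exceeded both normoxic ones and in A549 they did not, and the first difference was lost without RKO normoxia replicate 2 (0.74) or RKO hypoxia replicate 1 (0.83). HIF1AN differed by −0.41 for RKO minus H460 (adjusted p = 0.0860) and by −0.58 for A549 minus H460 (adjusted p = 0.0216). Both HIF1AN differences were lost when libraries were scaled by total reads alone (−0.02 and −0.32). With groups of 2, no single library could be tested as standing apart from its group.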

How the results depend on the processing

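EGLN1 kept its calls in RKO (0.90 to 1.44 with a library left out) and H460 (1.46 to 1.61) and EGLN3 kept its call in H460 under every alternative run. EGLN3 in A549 was lost without a filter on low counts (3.43, adjusted p = 0.122, leaving 0 members called higher in A549), where more genes enter the fit, and HIF1AN in H460 was called with no minimum fold change (0.42). Values near 0 changed sign without a call under the 1.5-fold rule. With total reads alone HIF1AN and VHL in RKO were 0.0492 and 0.0489, VHL in A549 −0.0315 and VHL in H460 −0.35, and the differences were 0.0803 for VHL (RKO minus A549) and 0.0363 for EGLN1 (RKO minus H460). Limma on RPKM gave 0.0485 for HIF1AN and 0.0556 for VHL in RKO, −0.0324 for VHL in A549, −0.35 for VHL in H460, and differences of 0.0880 for VHL and 0.0546 for EGLN1 with a pseudocount of 0.1. With a pseudocount of 1 these were 0.0453, 0.0526, −0.0305, −0.34, 0.0832 and 0.0469. The joint fit gave 0.0271 for HIF1AN and 0.0281 for VHL in RKO, the 1 CPM filter −0.00894 for VHL in H460, and DESeq2 and RLE factors −0.0215 and −0.0214 for VHL (RKO minus H460).

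The number of members with a called interaction was 2 for RKO against A549 with DESeq2, with no filter and with limma at both pseudocounts, and for RKO against H460 it was 2 with DESeq2 and 0 with total reads alone. With no filter and with limma it was 1 as before, EGLN3 in place of HIF1AN. Of the listed pathway genes DESeq2 called 2 higher and 3 lower in A549 in place of 1 and 1, and total reads alone called 9 higher in RKO in place of 5 and 20 lower in H460 in place of 11. Adding the read-through reads gave EGLN2 a share of the summed EGLN RPKM of 1.58% in normoxic and 0.466% in hypoxic H460.

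With a library left out, one arm has 1 library, which is assumed to vary like the others. The ranges were −0.0707 to 0.0149 for HIF1AN in RKO and −0.153 to 0.0979, −0.0447 to 0.156 and −0.0493 to 0.0905 for VHL in RKO, A549 and H460. The VHL differences ranged from −0.166 to 0.0859 (RKO minus A549), −0.0980 to 0.155 (RKO minus H460) and −0.0573 to 0.168 (A549 minus H460). Normoxic levels ranged from −0.41 to 0.13 for EGLN1 and −0.0995 to 0.0204 for HIF1AN (RKO minus H460), and from −0.0367 to 0.0909 for HIF1AN (A549 minus H460). Members with a called interaction numbered 0 to 2, 0 to 2 and 1 to 3 for the pairs in the order RKO and A549, RKO and H460, A549 and H460, and those called in normoxia between RKO and A549 numbered 1 to 2.

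Replicates of normoxia and hypoxia share numbers in the labels, which do not say that a number marks a shared day. With 2 numbers per line their deviations correlated at 0.376 in RKO, 0.397 in A549 and 0.184 in H460. With the replicate number as a block, EGLN3 in A549 was 3.45 (adjusted p = 0.338, with 0 members called higher in A549) and the pathway genes called in A549 were 2 higher and 5 lower. Over all genes the block moved the A549 calls from 259 higher and 50 lower to 1146 and 661. In every setting the EGLN2 values in H460 and the EGLN3 values in RKO are limited by their reads (at most 17 and 6 per library), and 2 libraries per group limit all errors.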
